A study of Homo sapiens with 6 samples.

Results

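The genes described here are 47 genes of the G1/S transition and of DNA replication, taken by symbol from a count table of 17297 genes; all 47 symbols were found. They were measured by RNA-seq in LNCaP (LnCaP in the labels), a long-used human line of prostate cancer with a luminal character. One stable line carried the empty retroviral vector pBabe (pBabe-vector, genotype given as WT) and another overexpressed GNA13, the gene of the G protein subunit Gα13, from the same vector (pBabe-GNA13). Each line gave 3 libraries, from cells cultured for 48 h, so 1 line stands for each condition and line and transgene cannot be told apart. The libraries form 3 pairs of 1 pBabe-vector and 1 pBabe-GNA13 library, named replicate 2, replicate 3 and std after their column headings. The std library of pBabe-vector is its replicate 1. The heading of the std library of pBabe-GNA13 also carries the number 2, as that of replicate 2 does, so its sample is known only as far as the line, and it was paired by the tag. What the tag stands for is not given in the sources used here, and every comparison with or between pairs depends on this assignment. Unless said otherwise, values of a line are listed below in the order std, replicate 2, replicate 3.

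Before S phase, the MCM2-7 helicase is loaded onto origins, with the origin recognition complex, CDC6 and CDT1. Cyclin D and cyclin E with their kinases inactivate the retinoblastoma protein, which frees the E2F factors to switch on the genes of replication and nucleotide supply. CDC45, GINS and MCM10 activate the helicase, and primase, the replicative polymerases, the PCNA clamp and its loader copy the DNA. In cultured cells, transcripts of this group accompany proliferation.

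Since E2F factors are known for binding near the start sites of such genes, the promoters of several members that the results turn on are shown. They are RefSeq sequences of build GRCh38.p14, cover the 250 bases before the annotated start, and are written 5′ to 3′ on the strand of the gene. Capitals mark E2F words, that is TTTCCCGC, TTTCCCGG, TTTCGCGC, TTTCGCGG, TTTGCCGC, TTTGCCGG, TTTGGCGC or TTTGGCGG on either strand. E2F1, the activator itself, lies on chromosome 20 and its window is chr20:33686386-33686635, minus strand, with 3 words, of which the first pair overlap on opposite strands.
E2F1: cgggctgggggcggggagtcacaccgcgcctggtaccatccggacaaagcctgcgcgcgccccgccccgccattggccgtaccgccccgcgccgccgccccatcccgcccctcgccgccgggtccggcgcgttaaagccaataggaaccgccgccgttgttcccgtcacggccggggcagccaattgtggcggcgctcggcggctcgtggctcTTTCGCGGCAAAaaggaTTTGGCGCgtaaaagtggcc
E2F2, the member with the largest difference between replicate 3 and replicate 2, has 2 words in chr1:23531234-23531483, minus strand.
E2F2: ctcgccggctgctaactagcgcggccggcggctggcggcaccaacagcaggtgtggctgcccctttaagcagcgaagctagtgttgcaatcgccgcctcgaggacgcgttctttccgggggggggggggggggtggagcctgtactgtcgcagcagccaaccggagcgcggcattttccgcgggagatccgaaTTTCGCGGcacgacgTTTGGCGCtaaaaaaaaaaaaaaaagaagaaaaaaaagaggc
CDC6, the licensing factor, has 1 word in chr17:40287629-40287878, plus strand.
CDC6: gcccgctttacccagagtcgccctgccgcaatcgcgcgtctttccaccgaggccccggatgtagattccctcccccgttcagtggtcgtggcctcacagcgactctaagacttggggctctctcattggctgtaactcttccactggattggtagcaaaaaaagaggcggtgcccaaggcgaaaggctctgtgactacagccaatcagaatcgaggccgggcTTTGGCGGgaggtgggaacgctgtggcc
POLE, the member with the largest positive difference between the lines, has 1 word on the opposite strand in chr12:132687343-132687592, minus strand.
POLE: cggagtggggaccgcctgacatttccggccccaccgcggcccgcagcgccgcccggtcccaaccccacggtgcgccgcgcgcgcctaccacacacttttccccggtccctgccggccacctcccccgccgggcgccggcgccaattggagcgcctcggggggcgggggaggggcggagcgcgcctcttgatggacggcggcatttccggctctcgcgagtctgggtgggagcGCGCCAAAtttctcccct
MCM10, also among the largest differences between replicates 3 and 2, holds none of these letters in chr10:13161308-13161557, plus strand.
MCM10: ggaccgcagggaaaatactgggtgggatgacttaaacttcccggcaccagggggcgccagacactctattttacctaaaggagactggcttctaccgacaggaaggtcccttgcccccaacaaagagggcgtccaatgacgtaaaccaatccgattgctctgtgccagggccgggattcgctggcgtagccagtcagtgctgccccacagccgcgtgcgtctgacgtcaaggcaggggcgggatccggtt

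A promoter entry was found for 40 of the 47 members. Each gene symbol was counted once, if any of its entries held the letters in a window of the same length. An E2F word stood in 19 of them (47.5%), against 6.36% of 27305 symbols and 10.3% of the 10894 that are in the count table. The letters CCAAT, on either strand, stood in 23 of the 40 (57.5%), against 37.0% of all symbols and 41.3% of those in the table. Both were found for 12 members (30.0%), against 2.81% of all symbols and 4.94% of those in the table. A list of 38 mitotic and G2/M genes, of which 31 had an entry, differed in makeup, with an E2F word in 3 (9.68%) and CCAAT in 25 (80.6%). These matches describe letters in a window and say nothing of binding.

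The libraries held 33002160 to 40628970 counts each. GNA13 stood at 76.7, 69.4 and 65.4 CPM (counts scaled to library size, with the trimmed mean of M-values, TMM) in pBabe-vector and at 820, 886 and 747 CPM in pBabe-GNA13. The difference was 3.54 ± 0.12 on the log2 scale (SE; edgeR adjusted p = 9.12e-05), in the direction of the labels. All 8 luminal prostate markers used were present, with summed levels of 4978 to 7690 CPM in pBabe-vector and 5861 to 8666 CPM in pBabe-GNA13. The 3 basal markers summed to at most 8.26 CPM and the 4 fibroblast markers to at most 25.4 CPM. TP63, a defining basal marker, was at or under 0.15 CPM. Of 3 blood and endothelial markers 1 was found, HBB, and its values stand beside the comparison of the pairs.

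All 47 members were well measured, the lowest count of any member in any library being 220. Per kilobase of the longest annotated transcript, the mean over the 6 libraries was highest for the sliding clamp PCNA (159.8 CPM per kb), followed by the helicase subunit MCM7 (104.8), thymidine kinase TK1 (82.8) and cyclin D1, CCND1 (80.2). It was lowest for E2F2 (3.46 CPM per kb) and for the checkpoint mediator CLSPN (4.11).

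The level of the members differed more between pairs than between the lines of a pair. The median member stood at 41.01 CPM in the pBabe-GNA13 and 43.6 CPM in the pBabe-vector library of replicate 2. In std it stood at 51.9 and 52.9 CPM, and in replicate 3 at 86.4 and 87.4 CPM. Summed over all members, the transcripts took 3493, 2972 and 6103 CPM in pBabe-vector and 3787, 2731 and 5846 CPM in pBabe-GNA13. In both lines the lowest sum was therefore that of replicate 2 and the highest that of replicate 3. In such bulk samples, fewer cells that express these genes and less RNA per cell cannot be told apart.

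**Figure D1:**
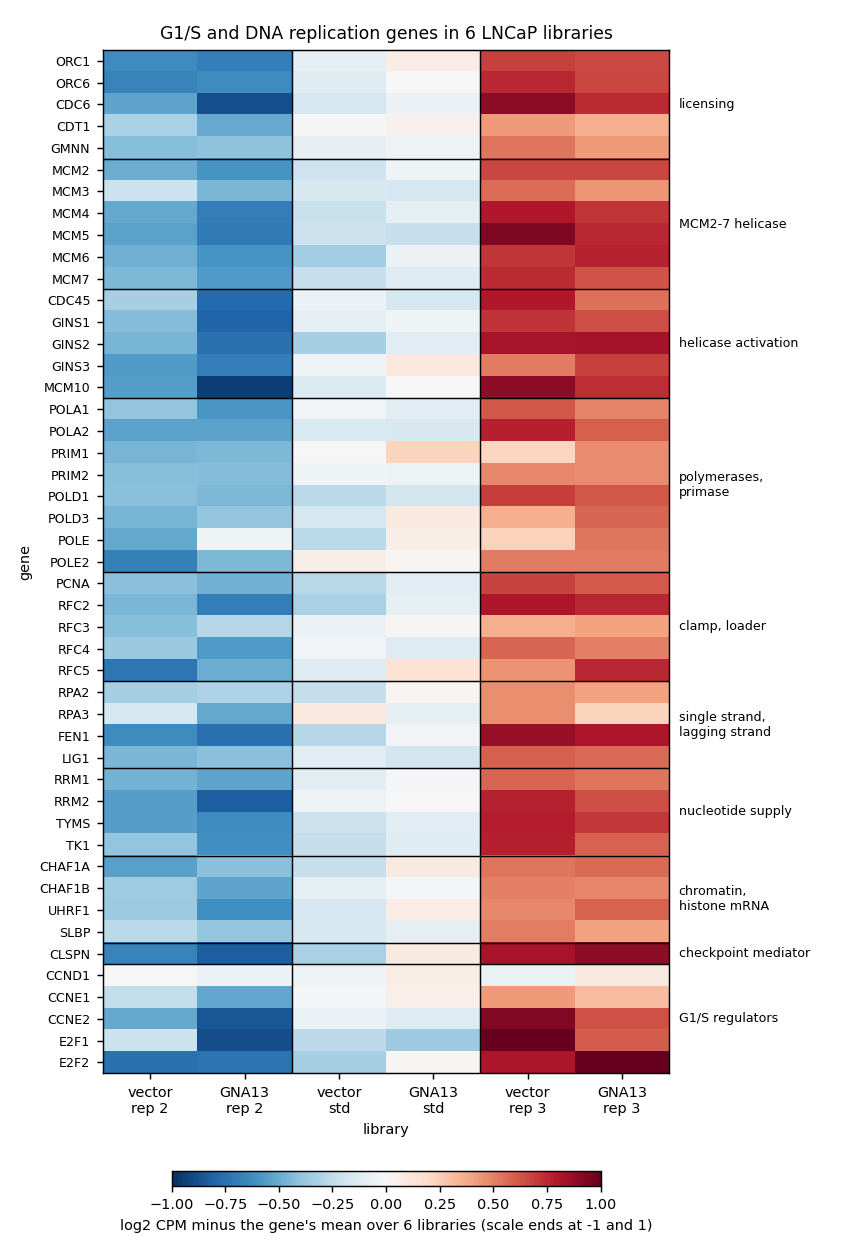
Level of each of the 47 genes (rows, grouped by role) in each of the 6 libraries (columns, ordered by pair), as log2 CPM minus the mean of the gene over the libraries. The columns of replicate 2 are mostly blue and those of replicate 3 mostly red in both lines, and CCND1 is close to white throughout.

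The first comparison asked whether overexpression of GNA13 went with a change of these genes. None of the 47 members was called at an adjusted p under 0.05 (edgeR quasi-likelihood test over all genes), against 24 of 17297 genes (0.139%, with 0.116% higher and 0.0231% lower in pBabe-GNA13). At an unadjusted p under 0.05 the count was also 0 of 47, against 1463 genes, and DESeq2 and limma-voom called 0 members as well. The median log2 fold change of the members, pBabe-GNA13 minus pBabe-vector, was -0.021, with a range from -0.44 for E2F1 to 0.36 for POLE and a median over all genes of -0.0013. No member had lines that did not overlap (0 of 47), beside 14.1% of all genes. In 46 members both libraries of replicate 3 lay above both of replicate 2, an order that forces the lines to overlap. For them this count therefore says nothing of a response to GNA13. With 3 libraries against 3, the smallest p that an exact two-sided permutation test allows is 0.10, and the smallest among the members was 0.30. The same order of the pairs keeps this p above 0.10 in those 46 members, so it cannot decide on a response there. The fits above had no pair term, so the spread between pairs counted as scatter in them.

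The spread between the pairs was wide beside the difference between the lines. For POLE, the line difference was 0.36 with an SE of 0.22, and for E2F1 it was -0.44 with an SE of 0.48. For CCND1, which differed little between pairs, the 95% interval of the line difference ran from -0.14 to 0.29. Within the pairs, the median member was higher in pBabe-GNA13 by 0.11 on the log2 scale in std, and the medians were -0.12 in replicate 2 and -0.07 in replicate 3. The difference had the same sign in all 3 pairs for 17 members, 7 higher and 10 lower in pBabe-GNA13, or 36.2% of the members against 48% of all genes.

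Since libraries of the same pair deviated together, the lines were also compared with the pair as a block. In that fit 7 of 47 members were called (14.9%), a share below the 19.7% of all genes. By direction, 3 members were higher in pBabe-GNA13 and 4 were lower, beside 9.32% and 10.4% of all genes. POLE, the catalytic subunit of the leading strand polymerase, RFC5, a subunit of the clamp loader, and POLD3, an accessory subunit of polymerase delta, were higher in pBabe-GNA13. E2F1, CDC45, RPA3, the smallest subunit of the single-strand binding protein RPA, and cyclin E2, CCNE2, were lower. Differences ran from -0.43 to 0.37 on the log2 scale, so each was smaller than the difference of the same gene between replicates 3 and 2.

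POLE stood at 54.5, 46.2 and 77.2 CPM in pBabe-vector and at 68.9, 63.8 and 95.2 CPM in pBabe-GNA13. It was higher in pBabe-GNA13 in every pair, although the lines overlapped, and the blocked difference was 0.37 ± 0.05 (SE; adjusted p = 9.29e-06). RFC5 stood at 37.7, 24.95 and 56.4 CPM in pBabe-vector and at 45.5, 29.3 and 69.4 CPM in pBabe-GNA13. Its difference, 0.27 ± 0.06 (adjusted p = 0.00105), was of like size in the 3 pairs, from 0.23 to 0.30. POLD3 stood at 25.7, 20.9 and 37.0 CPM in pBabe-vector and at 31.0, 21.95 and 43.2 CPM in pBabe-GNA13. Its difference was 0.19 ± 0.07 (adjusted p = 0.0420), and in replicate 2 it was only 0.07. It missed the threshold when the pair of replicate 3 (adjusted p = 0.231) or the std pair (adjusted p = 0.187) was left out, and with GC and length offsets (adjusted p = 0.0527).

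E2F1 stood at 77.4, 79.8 and 202 CPM in pBabe-vector and at 72.2, 50.1 and 141.5 CPM in pBabe-GNA13. Replicates 2 and 3 carried most of this difference, with -0.67 and -0.51 on the log2 scale against -0.10 in std. The blocked value was -0.43 ± 0.07 (adjusted p = 5.27e-05), and it was -0.32, -0.37 and -0.59 without the pair of replicate 2, of replicate 3 and of std, called each time. RPA3 stood at 52.9, 43.6 and 68.0 CPM in pBabe-vector and at 46.2, 34.7 and 57.5 CPM in pBabe-GNA13, lower in every pair. Its difference was -0.25 ± 0.06 (adjusted p = 0.00130) and was called in every fit with the block. CDC45 stood at 38.5, 31.8 and 69.8 CPM in pBabe-vector and at 35.4, 23.4 and 58.6 CPM in pBabe-GNA13. It was also lower in every pair, with a difference of -0.26 ± 0.06 (adjusted p = 0.00297) and an adjusted p of 0.0532 without the pair of replicate 2. CCNE2 stood at 18.2, 13.3 and 36.1 CPM in pBabe-vector and at 17.4, 10.5 and 29.6 CPM in pBabe-GNA13. Its difference of -0.22 ± 0.08 (adjusted p = 0.0451) missed the threshold without the pair of replicate 2 (adjusted p = 0.169) or of replicate 3 (adjusted p = 0.367), and with GC and length offsets (adjusted p = 0.0666).

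The 3 members next in order were not called in the blocked fit of all pairs. CHAF1A, the large subunit of chromatin assembly factor 1, stood at 76.2, 61.5 and 129.8 CPM in pBabe-vector and at 95.3, 66.9 and 132 CPM in pBabe-GNA13, with a blocked difference of 0.16 (adjusted p = 0.0545). Primase subunit PRIM1 stood at 25.6, 18.5 and 29.7 CPM in pBabe-vector and at 29.8, 18.7 and 35.6 CPM in pBabe-GNA13, with 0.17 (adjusted p = 0.0935). MCM3 stood at 108.6, 104.6 and 178 CPM in pBabe-vector and at 107.6, 88.2 and 164 CPM in pBabe-GNA13, with -0.12 (adjusted p = 0.115). Their groups overlapped, as those of all members did, and the span of the differences over the pairs was wider than their mean. Such a span was also found for E2F1, CDC45, CCNE2 and POLD3, which were called. Each passed the threshold in some other blocked fit. CHAF1A did so with GC and length offsets (adjusted p = 0.0497) and without the pair of replicate 3 (adjusted p = 0.0150), PRIM1 without that of replicate 2 (adjusted p = 0.0373) and MCM3 without the std pair (adjusted p = 0.0347).

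Several of the blocked differences lay near the median of all genes on the chromosome of the gene. On chromosome 12, which holds PRIM1, POLE and RFC5, the median gene was 0.29 higher in pBabe-GNA13 on the log2 scale, over 580 genes. On chromosome 20, which holds GINS1, PCNA and E2F1, the median was -0.20 over 318 genes, and on chromosome 22, which holds MCM5 and CDC45, it was -0.15 over 293 genes. These shifts were close to equal in the 3 pairs, for chromosome 12 from 0.28 to 0.31. With every chromosome centred on its own median, 5 of 47 members were called, against 14.1% of all genes, 2 of them higher (6.62% of all genes) and 3 lower (7.5%). POLE then differed by 0.08 (adjusted p = 0.369), RFC5 by -0.019 (adjusted p = 0.888), CDC45 by -0.14 (adjusted p = 0.161) and CCNE2 by -0.18 (adjusted p = 0.128). POLD3 (0.25, adjusted p = 0.0132), RPA3 (-0.22, adjusted p = 0.00712) and E2F1 (-0.23, adjusted p = 0.0272) were past the threshold in this fit too. PCNA passed it here (0.21, adjusted p = 0.00684) and not with the block alone (0.01, adjusted p = 0.924). The same held for RRM2, the regulated subunit of ribonucleotide reductase (-0.19, adjusted p = 0.0256, against -0.11 and 0.205). What moved whole chromosomes between the lines was not tested.

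**Figure D2:**
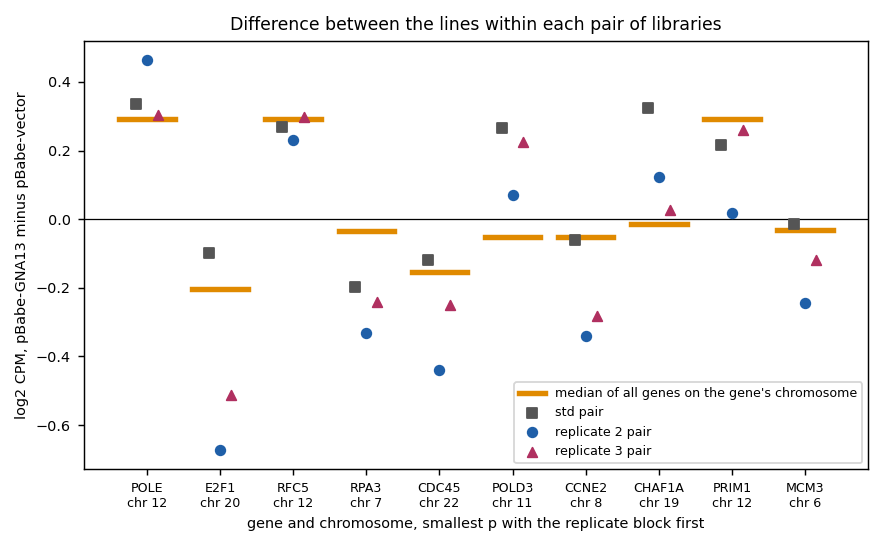
Difference between the lines (log2 CPM, pBabe-GNA13 minus pBabe-vector) within each of the 3 pairs for the 10 genes with the smallest p in the fit with the block, each point being 1 pair. The orange bars give the median of all genes on the same chromosome, which lies at 0.29 for POLE, RFC5 and PRIM1 and at -0.20 for E2F1.

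The second comparison set the pairs against each other. Of the 47 members, 46 were higher in replicate 3 than in replicate 2 and 0 were lower (edgeR with line and pair as terms, 2 libraries in each pair), against 20.7% of all genes higher, 21.4% lower and 42.1% called in either direction. The median member was 1.19 higher on the log2 scale, or 2.28-fold, while the median over all genes was 0. The differences ran from 0.04 for CCND1 to 1.64 for E2F2. A difference of over 2-fold was found in 33 members, against 2.3% of all genes. In 46 members both libraries of replicate 3 lay above both of replicate 2, against 29% of all genes. Among the 14059 genes with a mean of at least 1 CPM, the median member stood at percentile 99.0 of this difference, and 44 members stood at or above percentile 95.

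The 6 largest differences belonged to genes of several roles. E2F2 stood at 12.7, 9.57 and 28.1 CPM in pBabe-vector and at 16.1, 9.58 and 31.9 CPM in pBabe-GNA13, a difference of 1.64 ± 0.10 (SE; adjusted p = 8.49e-13). CLSPN, which carries the replication checkpoint signal from ATR to CHK1, stood at 25.1, 19.7 and 55.7 CPM in pBabe-vector and at 33.4, 17.7 and 58.5 CPM in pBabe-GNA13. MCM10 stood at 47.05, 35.4 and 96.3 CPM in pBabe-vector and at 51.9, 26.9 and 86.4 CPM in pBabe-GNA13. In each of the 3 genes the libraries of replicate 3 were higher than the other 4. FEN1, the flap endonuclease that trims Okazaki fragments, stood at 93.0, 73.5 and 208 CPM in pBabe-vector and at 111.6, 67.6 and 199 CPM in pBabe-GNA13. CDC6 stood at 74.2, 57.9 and 155 CPM in pBabe-vector and at 80.1, 45.3 and 139.6 CPM in pBabe-GNA13. MCM5 stood at 94.7, 76.1 and 211 CPM in pBabe-vector and at 94.1, 67.5 and 185.6 CPM in pBabe-GNA13. The differences of these 5 genes ran from 1.47 for MCM5 to 1.60 for CLSPN, with SE of 0.07 to 0.09.

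By role, all 5 licensing genes were higher in replicate 3, with a median of 1.33 on the log2 scale. ORC1 and ORC6, subunits of the origin recognition complex, differed by 1.33 and 1.36, and CDC6, which joins them at the origin, by 1.52. CDT1, which brings the helicase to the origin, and GMNN, its inhibitor geminin, differed by the smaller 0.81 and 0.90. The 6 subunits of the MCM2-7 helicase, all called, had a median of 1.24. MCM5 (1.47) and MCM4 (1.36) stood highest, then MCM6 (1.28), MCM2 (1.21) and MCM7 (1.20), and MCM3 (0.83) lowest. The 95% interval of MCM3, from 0.69 to 0.97, did not reach the value of any other subunit. The 5 genes of helicase activation lay close together around a median of 1.296, with CDC45 at 1.22, GINS3 at 1.23, GINS2 at 1.43 and MCM10 at 1.55.

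The 8 genes of the polymerases and primase had a median of 0.98. POLA1 and POLA2, subunits of the polymerase alpha that extends primers, differed by 1.04 and 1.23, and the primase subunits PRIM1 and PRIM2 by 0.80 and 0.91. Polymerase delta, for the lagging strand, was represented by POLD1 (1.09) and POLD3 (0.90). Polymerase epsilon, for the leading strand, was represented by POLE2 (1.08) and by POLE, which at 0.66 was the smallest difference of the group. Among the clamp and its loader, with a median of 1.10, RFC2 (1.35) and RFC5 (1.21) stood above PCNA (1.10), RFC4 (1.01) and RFC3 (0.74). Single-strand binding and lagging strand genes had the lowest median, 0.89, and a wide span. FEN1 was at 1.53 and the ligase LIG1, which seals Okazaki fragments, at 1.02, while the RPA subunits RPA2 and RPA3 were at 0.76 and 0.68.

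The 4 genes of nucleotide supply had a median of 1.26. The subunits of ribonucleotide reductase differed by 1.05 for RRM1 and 1.39 for RRM2, thymidylate synthase TYMS by 1.34 and TK1 by 1.19. The 4 genes of new chromatin and histone mRNA had a median of 0.98. They were CHAF1A (1.03) and CHAF1B (0.94), which deposit histones behind the fork, UHRF1 (1.02), which brings the maintenance methyltransferase to new DNA, and SLBP (0.79), which binds histone mRNA. Over all 42 genes other than the regulators, each was called and the SE ran from 0.06 to 0.12.

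Of the 5 G1/S regulators, 4 were higher in replicate 3. CCND1, which senses growth signals upstream of E2F, stood at 328, 341 and 324 CPM in pBabe-vector and at 358, 326 and 361 CPM in pBabe-GNA13. Its difference between replicates 3 and 2 was 0.04 (95% interval -0.10 to 0.17; adjusted p = 0.712), the only one of the 47 that was not called. CCNE1 stood at 26.1, 22.3 and 35.5 CPM in pBabe-vector and at 27.4, 18.4 and 32.8 CPM in pBabe-GNA13, a difference of 0.75 ± 0.09 (adjusted p = 1.19e-07). The cyclins E are E2F targets that act after CCND1, and CCNE2 differed by the larger 1.46 ± 0.10 (adjusted p = 2.29e-12). E2F1 differed by 1.41 ± 0.09 (adjusted p = 4.39e-13).

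**Figure D3:**
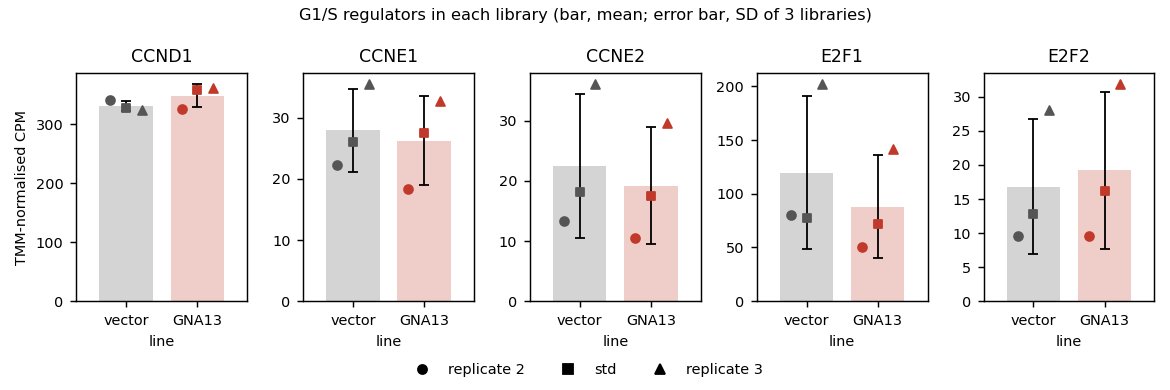
TMM-normalised CPM (y axes from 0, a scale for each gene) of the 5 G1/S regulators in each library, with bars for the mean and error bars for the SD of 3 libraries per line. The triangles of replicate 3 lie above the other points in both lines for CCNE1, CCNE2, E2F1 and E2F2, while CCND1 lies between 324 and 361 CPM in all 6 libraries.

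The same difference was present in each line taken alone, with 1 library on each side and so without a test. The median of replicate 3 minus replicate 2 was 1.13 on the log2 scale within pBabe-vector and 1.19 within pBabe-GNA13. Across the 47 members the values of the lines went together (Pearson r = 0.910, Spearman rho = 0.894), as they did across genes with a mean of at least 1 CPM (r = 0.810, rho = 0.818). These are correlations across genes, which are not independent replicates, and each line contributes a single library per pair. The largest difference between the lines in this quantity was 0.36, for UHRF1, and the median absolute difference was 0.13.

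**Figure D4:**
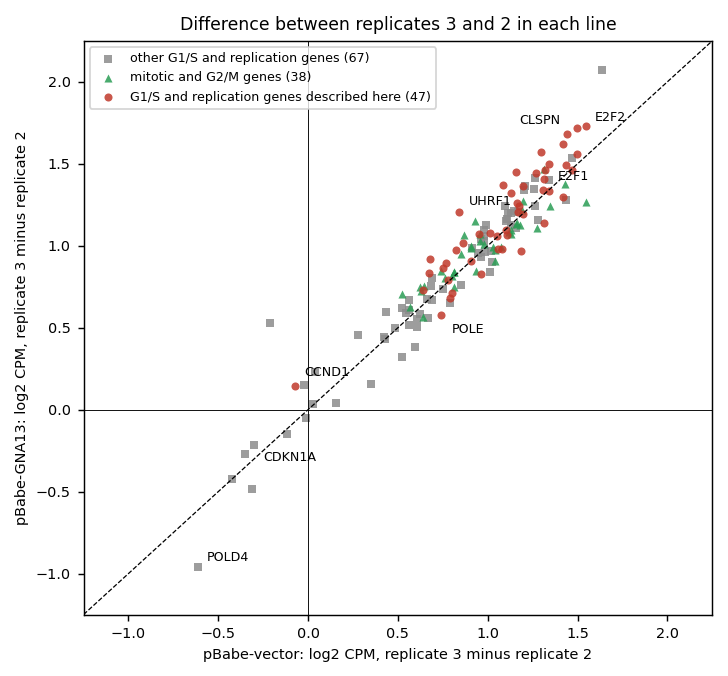
Difference between replicates 3 and 2 (log2 CPM) in pBabe-vector (x axis) and pBabe-GNA13 (y axis), each point being 1 gene; the dashed line marks equal values. The 47 members (red) lie from 0.58 upwards on the y axis except CCND1, and overlap with the mitotic and G2/M genes (green), while the other G1/S genes (grey) reach below 0.

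The std libraries lay between the others. In 43 of 47 members both std libraries were above both libraries of replicate 2 and below both of replicate 3, against 9.27% of all genes. The exceptions were PRIM1, POLE, CCND1 and E2F1. Against replicate 2, 43 members were higher in std and 0 were lower, with a median of 0.40 on the log2 scale, beside 10.6% of all genes higher, 9.07% lower and 19.6% called. MCM3 (0.17, adjusted p = 0.0785), POLE (0.17, adjusted p = 0.0636), E2F1 (0.24, adjusted p = 0.0532) and CCND1 (0.04, adjusted p = 0.762) were not called. Against replicate 3, 46 members were lower in std and 0 were higher, with a median of -0.72, beside 15.8% of all genes lower, 17.1% higher and 32.9% called. CCND1 was again the exception, at 0.0009 with a 95% interval of -0.13 to 0.13. These 3 comparisons share libraries and are not independent of each other. With no term for the line, 46 members were still called between replicates 3 and 2 but 2 between std and replicate 2.

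Members with and without an E2F word in the promoter window overlapped in this comparison. The 19 with a word had a median difference between replicates 3 and 2 of 1.10 on the log2 scale, from 0.66 for POLE to 1.64 for E2F2. The 21 without one had a median of 1.21, from 0.75 to 1.60, with MCM10 among them.

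Other measures moved with the pairs as well, and their part in the differences was not tested. KLK3, which encodes prostate-specific antigen, stood at 2674, 3784 and 1836 CPM in pBabe-vector and at 2780, 4204 and 2445 CPM in pBabe-GNA13, highest in replicate 2. HBB was at 0 CPM in both libraries of replicate 2, at 3.05 and 3.08 CPM in the other pBabe-vector libraries and at 30.3 and 33.5 CPM in the other pBabe-GNA13 libraries. Both genes were picked from the marker lists after their values were seen. Library totals did not follow the order of the pairs, being 33992353 and 35152588 counts in replicate 2 and 34865452 and 33002160 in replicate 3.

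Genes of the same pathway outside the 47 were read from a list of 69, of which 67 were in the table. Between the lines 0 were called, and 2 passed an unadjusted p under 0.05. The blocked fit called 18 of them (26.9%, against 19.7% of all genes). In pBabe-GNA13, 11 stood higher and 7 lower, beside 9.32% and 10.4% of all genes. The fit with chromosomes centred called 6 (8.96%, against 14.1% of all genes), not all of them among the 18. The 3 with the smallest p in the blocked fit were brakes or drivers of the transition. CDK6, a kinase partner of cyclin D, stood at 1.14, 1.74 and 1.5 CPM in pBabe-vector and at 4.47, 3.85 and 5.58 CPM in pBabe-GNA13. The lines did not overlap, as for 14.1% of all genes, and the blocked difference was 1.67 ± 0.19 (adjusted p = 2.02e-07). Without the block its adjusted p was 0.0883. CDKN1A, the kinase inhibitor p21, stood at 77.3, 114 and 93.0 CPM in pBabe-vector and at 105, 153 and 132 CPM in pBabe-GNA13, a blocked difference of 0.46 ± 0.05 (adjusted p = 2.42e-07). RBL1, the retinoblastoma relative p107, stood at 51.6, 37.1 and 73.1 CPM in pBabe-vector and at 38.5, 25.9 and 55.2 CPM in pBabe-GNA13. Its blocked difference was -0.45 ± 0.06 (adjusted p = 1.38e-06) and its centred one -0.25 (adjusted p = 0.00312), since it lies on chromosome 20.

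Between replicates 3 and 2, 55 of these 67 genes were higher and 5 lower, with a median of 0.74 on the log2 scale. Of all genes, 20.7% were higher and 21.4% lower. The 5 lower ones were POLD4 (-0.79), a subunit of polymerase delta, RBL2 (-0.42), the retinoblastoma relative p130 found in resting cells, CDKN1B (-0.40), the kinase inhibitor p27, TFDP2 (-0.31), an E2F partner, and CDKN1A (-0.26). They were named after their values were seen. Against replicate 2, std was higher for 45 and lower for 1, beside 10.6% and 9.07% of all genes. Against replicate 3 it was lower for 54 and higher for 4, beside 15.8% and 17.1% of all genes. Of the 38 mitotic and G2/M genes all 38 were higher in replicate 3 than in replicate 2, with a median of 0.99, and 37 were higher in std. With the replicate block, 12 of them were called between the lines, 2 higher and 10 lower in pBabe-GNA13, beside 9.32% and 10.4% of all genes. With chromosomes centred 6 were called, 1 higher and 5 lower, beside 6.62% and 7.5% of all genes.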

How the data were processed

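Per the labels and the study's methods, the authors checked reads with FastQC 0.11.7, aligned them with STAR to Gencode 38 and counted them per gene with featureCounts. The deposited values are whole-number counts per symbol, although the table is named for CPM. The strand setting was not given in the sources used here. All 6 columns were used and 0 were left out.

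Counts of 17297 genes were normalised by TMM and tested without a filter with the edgeR 4.0.16 quasi-likelihood test (R 4.3.3), Benjamini-Hochberg adjustment over all genes and a threshold of 0.05. The lines were compared with the line as the only term, and the pairs with line and pair as terms, which leaves 2 residual degrees of freedom per gene. The test borrows scatter across genes, so p-values and intervals rest on 26.3 moderated degrees of freedom with pair terms and 7.60 without. With 1 library per line in each pair, the p-values between pairs measure scatter between libraries of a pair. They do not measure variation among further cultures. The pairing rests on the column headings, by number for replicates 2 and 3 and by the tag std for the third pair. The tagged pBabe-GNA13 heading also carries the number 2, so there number and tag disagree. Over 12778 genes, libraries of the same pair correlated at 0.659 to 0.888 in their deviations from the line means, and those of different pairs at -0.736 to 0.125. No libraries of a line agreed within sampling noise. Log2 CPM used a prior count of 2, and errors without another name are SE of the fit. Counting error depends on the count of each gene, which was at least 220 for the members in every library. It is larger for genes at low levels such as CDK6.

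Coordinates and transcript lengths came from Gencode 44 (79.2% of the genes of the table matched by symbol, 3.99% by an older symbol) and promoters from RefSeq. DESeq2 1.42.0, limma 3.58.1, other scalings, a filter, GC and length offsets, chromosome centring and left-out libraries served as alternatives. The fits were tested on simulated counts. Apart from the changes planted in chosen genes, these held no differences between pairs. They cannot show how the fits do under the spread between pairs seen here. One listed cell type marker is not reported here.

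The members and lists were chosen with earlier results of these data known, and the gene lists are not independent of them. Values in every library are given for GNA13, the 10 members with the smallest p in the blocked fit, the 6 with the largest difference between replicates 3 and 2, and the G1/S regulators; of the other G1/S genes, for the 3 with the smallest p in the blocked fit.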

Additional observations from a re-analysis of the deposited data

Results flagged for a closer look

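CCND1 and E2F1 had differences of opposite sign in the lines between certain pairs of libraries, some of them close to 0. Each value rests on 1 library per side, and the differences were not tested. In the fit of both lines, the SE was 0.065 for CCND1 in each of these comparisons. It was 0.087 for E2F1 between std and replicate 2. Those SE are for the pair differences of the fit, which uses the libraries of both lines. They do not measure the error of a difference within a single line, which rests on fewer libraries. So they cannot establish a direction for any of the values that follow. For CCND1, replicate 3 minus replicate 2 was 0.15 on the log2 scale in pBabe-GNA13 and -0.07 in pBabe-vector, a difference of 0.22. Std minus replicate 2 was 0.13 and -0.06 for CCND1, a difference of 0.19, and std minus replicate 3 was -0.013 and 0.015, a difference of -0.028. For E2F1, std minus replicate 2 was 0.53 in pBabe-GNA13 and -0.04 in pBabe-vector, a difference of 0.57.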

How the results depend on the processing

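Between the lines, 24 genes and 0 members were called without the replicate block. With the block the counts were 3407 genes and 7 members, with chromosomes centred as well 2443 and 5, and with GC and length offsets 3377 and 6. Blocked fits without the pair of replicate 2, of replicate 3 and of std called 2550, 2250 and 3266 genes and 7, 6 and 13 members. DESeq2 called 271 genes, limma-voom 10, and fits that left out 1 library 2 to 15, with 0 members each. In the line comparison, the fits that left out 1 library had no pair term, so the lines then held unlike sets of pairs. Leaving out 1 library moved the median line difference of the members from -0.38 (without replicate 3 of pBabe-GNA13) to 0.36 (without replicate 3 of pBabe-vector). It moved CCNE2 from -0.68 to 0.28, CDC45 from -0.66 to 0.16, CHAF1A from -0.13 to 0.51, E2F1 from -0.97 to 0.16, MCM3 from -0.41 to 0.17, POLD3 from -0.069 to 0.46, PRIM1 from -0.015 to 0.41 and RFC5 from -0.082 to 0.61. With the chromosomes centred PRIM1 was at -0.11 and RFC5 at -0.019. Between replicates 3 and 2, 46 members were called under every alternative, also without the std pair (chosen after seeing the data), and the median ran from 1.10 to 1.24 with 1 library left out. All genes called fell from 7276 to 3399 with no term for the line. Between std and replicate 2, 3394 genes were called, 1846 by DESeq2, 93 with no term for the line and 1474 to 3135 with 1 library left out, lowest without the std library of pBabe-GNA13. The 43 members called there became 2 with no term for the line. Between std and replicate 3, 5698 genes were called, 1615 with no term for the line and 3212 to 6271 with 1 library left out, lowest without replicate 3 of pBabe-vector, and the member median ran from -0.80 to -0.60. Scaling by library totals only moved the share of higher calls, from 1826 of 3394 to 3597 of 4621 for std against replicate 2 and from 2957 of 5698 to 4195 of 6069 for std against replicate 3. The causes of these changes were not tested. With 3 libraries a line and 1 library per line in each pair, differences between lines smaller than the spread of the pairs were not detectable without the block.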
